A study of Rattus norvegicus with 6 samples.

Results

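The VEGF and angiopoietin pathway is described here through 10 genes chosen by name: the ligands Vegfa, Vegfb, Vegfc and Pgf, the receptors Flt1 and Kdr, the angiopoietin Angpt1 with its receptor Tek, and the secreted proteins Angptl4 and Esm1. Of the 10, 9 had a row in the gene table of 19088 rows, and all 9 passed the filter on low counts. Kdr had no row, so its RNA counts as not detected, and only its promoter window is used below. The lowest summed count of any row in the table was 1. VEGF ligands are secreted dimers that act through receptor tyrosine kinases, mainly on blood and lymphatic endothelial cells. Angiopoietins act on the receptor Tek and steady or loosen the vessel wall. The healthy nucleus pulposus, the gelatinous core of the intervertebral disc, has almost no blood vessels, and its cells are known to make Vegfa in their low-oxygen surroundings.

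Poly(A) RNA was sequenced from primary rat nucleus pulposus cells (strain SD) in culture with fetal bovine serum. The 3 rShh samples had received recombinant Sonic hedgehog protein, dissolved in DMSO, at 200 ng/ml for 48 h. The 3 Control samples had received DMSO at the matching concentration for 48 h, so both groups carry the solvent. The labels give neither age nor sex, and do not say that samples of a group came from separate animals or cultures, so each p-value is set against a spread between libraries that may be technical.

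The libraries held 50758195 to 55501124 counts for Control and 65116846 to 70031072 for rShh. Summed over the genes of chromosome Y, each Control library had 300 to 381 counts and each rShh library 14565 to 15659. The ligand and this further difference between the libraries cannot be told apart in any comparison below. Against the labelled cell type, Acan, the core protein of aggrecan, was at 6.80 ± 0.905 FPKM in the Control group (fragments per kilobase of transcript, relative to library size, as mean ± SD, n = 3) and at 71.0 ± 1.11 under rShh. Col2a1, the main cartilage collagen, reached no more than 0.32 FPKM in any library and Krt19, a notochordal keratin, had no row, while Col1a1, the collagen of fibrous tissue, was at 5049 ± 181 FPKM under Control and 2368 ± 22.2 under rShh. Pax1, Cd24, Foxf1 and Krt8, also markers of the nucleus pulposus and notochord, were at 26.6, 23.2, 16.0 and 5.42 FPKM in the Control group. Under rShh they were at 20.4, 7.04, 17.4 and 0.905 FPKM, and the change of Foxf1 did not pass. Slc2a1 and Sox9, of the same list, rose from 28.6 to 62.7 and from 0.571 to 1.15 FPKM, and Foxa2 fell from 0.785 to 0.219. Over all 14775 genes tested, 31.5% rose and 28.8% fell at an adjusted p below 0.05. Of 9 tested markers of the nucleus pulposus and notochord, 3 rose and 5 fell, and of 8 tested markers of annulus, tendon and fibroblasts, 6 rose and 2 fell. Thy1, a fibroblast surface marker among the 6, was at 41.0 ± 3.39 FPKM under Control and 491 ± 9.12 under rShh.

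Endothelial cells, the usual bearers of these receptors, left almost no trace. Of 6 defining endothelial markers, Pecam1, Cdh5 and Emcn had no row, and Vwf, Tie1 and Cldn5 reached at most 0.048 FPKM in any library. The 18 endothelial markers summed to 18.8 to 22.9 FPKM in Control and 24.2 to 25.0 in rShh libraries. Most of that came from Egfl7, Esam, Cd34 and Tek, and the other 8 with a row summed to 0.36 to 0.58 and 0.51 to 0.55 FPKM. Of the 9 endothelial markers tested, 3 rose, 2 fell and 4 did not pass, where 31.5% of all genes tested rose and 28.8% fell. Of 9 pericyte and smooth muscle markers, 8 rose and Acta2 did not pass, and their sum was 2038 to 3030 FPKM in Control and 3276 to 3404 in rShh libraries, mostly Acta2. Rgs5, a pericyte marker, had 0 counts in all 3 Control samples against 84 to 89 under rShh. The part of such cells in the results below was not tested.

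Most of the pathway genes differed between the groups, and they did so in both directions. Of the 9 tested, 7 changed at an adjusted p below 0.05 in edgeR's quasi-likelihood test, beside 60.3% of all 14775 genes tested. Esm1, Flt1 and Vegfa rose (31.5% of all genes rose), and Pgf, Angptl4, Tek and Vegfc fell (28.8% of all genes fell). Vegfb and Angpt1 did not pass. For the same 7 genes the 3 values of one group all lay above those of the other, as they did for 68.1% of all genes. The median log2 change of the 9 was -0.24 and that of all genes 0.01, while the median size of the change, without its sign, was 1.70 and 0.49. In bulk RNA, fewer cells of a type and less RNA per cell cannot be told apart.

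**Figure D1:**
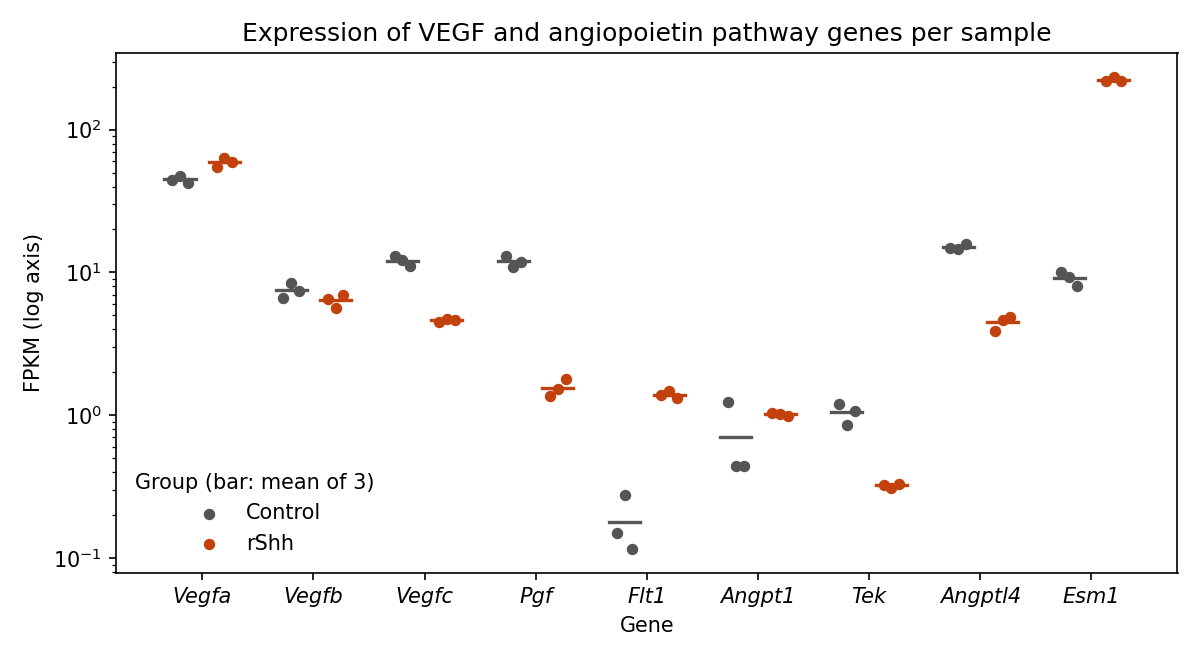
FPKM of the 9 measured genes (log axis) in each of the 6 samples, with a bar at the mean of each group of 3. Esm1 moved from 7.99 to 10.1 FPKM in Control samples to 218 to 235 in rShh samples, Pgf moved the other way, and the values of Vegfb and of Angpt1 overlapped between groups.

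The order of levels changed with the groups. In Control samples Vegfa led at 44.8 ± 2.78 FPKM, followed by Angptl4 (15.1 ± 0.711), Vegfc (12.1 ± 0.975), Pgf (11.9 ± 1.14), Esm1 (9.12 ± 1.05) and Vegfb (7.51 ± 0.880). Below them came Tek (1.05 ± 0.173), Angpt1 (0.708 ± 0.465) and Flt1 (0.180 ± 0.0838). The neighbouring pairs Vegfc and Pgf, Esm1 and Vegfb, and Tek and Angpt1 overlapped. In rShh samples Esm1 led at 224 ± 9.87 FPKM, ahead of Vegfa (59.4 ± 4.36), Vegfb (6.38 ± 0.673), Vegfc (4.61 ± 0.142), Angptl4 (4.49 ± 0.531), Pgf (1.56 ± 0.208), Flt1 (1.39 ± 0.0795), Angpt1 (1.01 ± 0.0267) and Tek (0.323 ± 0.0114). Vegfc and Angptl4, and Pgf and Flt1, overlapped there.

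Among the ligands, Vegfa, the main driver of vessel growth, lies on chromosome 9 at 17340341 to 17355681 (coordinates of the deposited table, whose genome build is not given in the sources used here). Vegfa was at 44.7, 47.6 and 42.1 FPKM in the Control samples and at 54.8, 63.5 and 59.8 in the rShh samples. The lowest rShh sample lay above the highest Control sample. The rise was modest, 1.32-fold, with a log2 change of 0.40 (SE 0.06, edgeR adjusted p = 0.000396).

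Pgf, placental growth factor, a ligand of Flt1 but not of Kdr (chromosome 6, 108994018 to 109004598), had 1370, 1093 and 1127 counts under Control and 167, 195 and 216 under rShh. On the FPKM scale that was 13.1, 10.9 and 11.8 against 1.37, 1.53 and 1.78. The groups were far apart, and the level in the Control group was 7.65 times that in the rShh group. The log2 change was -2.94 (SE 0.13, edgeR adjusted p = 5.82e-08), and 128 of the 8914 genes called in the whole table had a lower one.

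Vegfc, which acts mainly on the lymphatic receptor Flt4 (chromosome 16, 40440207 to 40555576), was at 13.0, 12.3 and 11.1 FPKM in Control and at 4.47, 4.75 and 4.61 in rShh samples. Every rShh sample lay below every Control sample, and the 3 rShh values were close together. The Control level was 2.63 times the rShh level, with a log2 change of -1.40 (SE 0.09, edgeR adjusted p = 6.71e-07). Vegfb, a second ligand of Flt1 (chromosome 1, 222239022 to 222242644), was at 6.65, 8.41 and 7.47 FPKM in Control and at 6.54, 5.65 and 6.97 in rShh samples. The ranges overlapped, and the log2 change of -0.24 (SE 0.13) did not pass (edgeR adjusted p = 0.124). Without Control replicate 1, its lowest Control value, the log2 change was -0.34 and passed (edgeR adjusted p = 0.0405).

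The 4 ligands together made up a similar sum in both groups, 76.4 ± 3.51 FPKM in Control and 71.9 ± 4.25 in rShh samples, with overlapping values. What changed was the make-up of that sum. Vegfa held 57.7%, 60.2% and 58.1% of it in the Control samples and 81.6%, 84.2% and 81.7% in the rShh samples. Pgf went from 16.9%, 13.7% and 16.3% to 2.04%, 2.03% and 2.44%, and Vegfc from 15.9% ± 0.803 to 6.42% ± 0.202 (SD, n = 3). The size of these changes depended on the unit: with CPM, the count scaled to library size but not to transcript length, the share of Pgf differed by -7.58 percentage points in place of -13.5. The share of Vegfb, 9.84% ± 1.10 and 8.91% ± 1.24, overlapped between groups. The ratio of Vegfa to Pgf, both in FPKM, was 3.41 to 4.39 in Control and 33.6 to 41.5 in rShh samples. With 3 samples against 3, an exact permutation test cannot give a p below 0.1, so none is given.

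**Figure D2:**
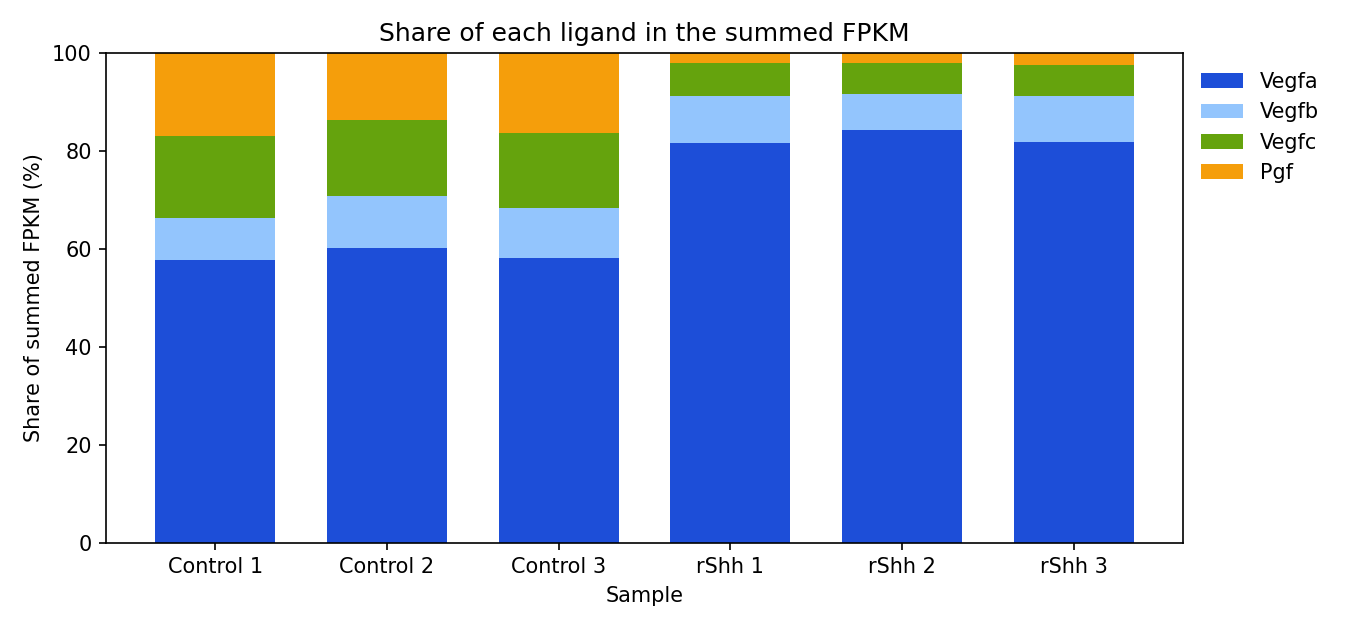
Stacked bars give the share (%) of each of the 4 ligands in their summed FPKM, 1 bar per sample. Vegfa takes 57.7% to 60.2% of the bar in the 3 Control samples and 81.6% to 84.2% in the 3 rShh samples, while Pgf shrinks to 2.03% to 2.44%.

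Vegfa was the one gene among the 10 with several transcripts in the isoform table, and its 4 transcripts share the same start and end. They differ in length by 72 and by 132 bases, and Vegfa transcripts are known to differ by exons that encode heparin-binding stretches, which hold the protein at the cell surface and in the matrix. The transcript of 3342 bases with 6 exons took 46.1%, 41.5% and 59.1% of the Vegfa counts under Control and 43.5%, 41.7% and 51.2% under rShh. The transcript of 3474 bases with 7 exons took 47.7%, 52.2% and 22.0% in the Control and 48.0%, 48.5% and 30.3% in the rShh libraries. The longest, 3546 bases with 8 exons, took 5.00%, 4.95% and 16.7% in the Control and 7.51%, 9.42% and 16.0% in the rShh libraries. Replicate 3 of each group stood apart from the other samples in all 3 of these shares.

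The transcript of 3414 bases took 0.41% to 2.59% of the Vegfa counts. The 95% Wilson intervals of these shares reach at most 1.01 percentage points either way and cover counting error only, not the error of assigning reads to transcripts. None of the 4 transcripts passed the edgeR test over 18180 isoforms (45.1% of which did), none had an unadjusted p below 0.05, and the ranges of each overlapped between groups (59.6% of isoforms had none). The nearest was the transcript of 3342 bases (log2 change 0.29, SE 0.12, edgeR adjusted p = 0.0996), which DESeq2 called (adjusted p = 0.0424). Without Control replicate 3 it passed (edgeR adjusted p = 0.0331), as did the transcript of 3546 bases, whose log2 change went from 0.74 to 1.5 (edgeR adjusted p = 0.0289). Of all 12 transcripts of the 9 genes, 2 rose (23.8% of isoforms rose), 4 fell (21.3% fell) and 6 did not pass. On simulated counts with 1 common spread for all isoforms, the edgeR test called 0% of 1.5-fold and 2% of 2-fold changes. These rates do not carry over to transcripts with a smaller SE, as that of 3342 bases (SE 0.12) and that of Vegfb (SE 0.14). The other Vegfa transcripts and that of Angpt1 had SEs of 0.38 to 0.65, and may still have changed by such an amount.

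**Figure D3:**
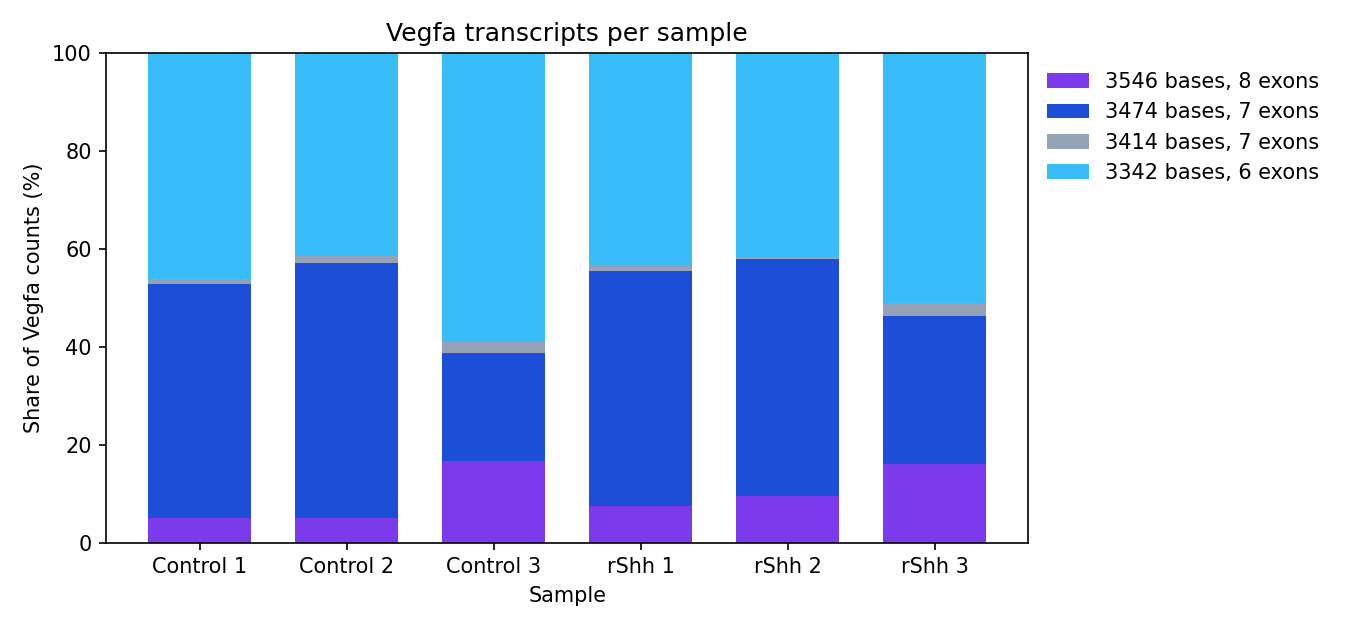
Stacked bars give the share (%) of Vegfa counts assigned to each of the 4 transcripts, 1 bar per sample. Control replicate 3 and rShh replicate 3 hold 16.7% and 16.0% of the transcript of 3546 bases, against 4.95% to 9.42% in the other samples.

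Of the receptors, Flt1, which binds Vegfa, Vegfb and Pgf and often acts as a decoy (chromosome 12, 9034308 to 9205905), was low in the Control group, with 70, 124 and 50 counts, and had 753, 840 and 711 in the rShh group. Its FPKM values were 0.149, 0.275 and 0.116 against 1.38, 1.48 and 1.32. All rShh samples lay above all Control samples, at 7.74 times the mean FPKM (log2 change 2.93, SE 0.26, edgeR adjusted p = 7.02e-06). Kdr, the main signalling receptor for Vegfa, has no value here.

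Beyond the 10 genes, 13 other VEGF family ligands, receptors, co-receptors and semaphorins were tested, of which 6 rose, 2 fell and 5 did not pass. Over all genes tested, 31.5% rose and 28.8% fell. Flt4, the receptor of Vegfc, had 44, 119 and 69 counts in Control and 5194, 5344 and 5184 in rShh libraries, or 0.211 ± 0.105 and 11.6 ± 0.136 FPKM (edgeR adjusted p = 2.59e-08). Flt4 is also a marker of lymphatic endothelium. Of the other 3 markers of that list, Lyve1 and Prox1 reached at most 0.034 and 0.040 FPKM in any library, while Pdpn, which fibroblasts also express, was at 47.1 ± 2.46 FPKM under Control and 46.8 ± 1.9 under rShh. Nrp2, a co-receptor of Vegfc and of semaphorins, rose from 33.5 ± 1.31 to 68.2 ± 2.12 FPKM. Nrp1, a co-receptor of Vegfa, was at 6.55 ± 0.667 and 7.50 ± 0.310 FPKM and did not pass (edgeR adjusted p = 0.0687).

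Sema3e, a repellent cue for vessels, rose from 4.07 ± 0.397 to 8.53 ± 0.135 FPKM. Plxna1, a semaphorin receptor, fell from 36.8 ± 0.996 to 14 ± 0.480 FPKM and Sema3d from 23.4 ± 8.98 to 8.13 ± 0.496. Vegfd, the other ligand of Flt4, named after its values were seen, rose from 0.116 ± 0.0465 to 1.61 ± 0.275 FPKM (edgeR adjusted p = 3.09e-06). Vegfd and Flt4 were thus higher in the rShh group and Vegfc lower.

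Tek, the angiopoietin receptor (chromosome 5, 113725717 to 113852799), went the other way from Flt1. Its counts were 367, 253 and 300 under Control and 117, 116 and 117 under rShh, or 1.20, 0.860 and 1.07 against 0.327, 0.310 and 0.331 FPKM. The groups did not overlap, and the log2 change was -1.70 (SE 0.19, edgeR adjusted p = 3.41e-05).

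Angpt1, the ligand that activates Tek (chromosome 7, 81342280 to 81592206), was at 1.25, 0.442 and 0.438 FPKM in Control and 1.04, 1.02 and 0.985 in rShh samples. Control replicate 1 lay above every rShh sample and the other 2 Control samples below, and the log2 change of 0.51 (SE 0.39) did not pass (edgeR adjusted p = 0.282). Control replicate 1 decided this: without it, the log2 change was 1.18 and passed (edgeR adjusted p = 0.00373).

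Of 7 tested angiopoietin, Tie and angiopoietin-like genes beyond the 10, 3 rose, 1 fell and 3 did not pass. Over all genes, 31.5% rose and 28.8% fell. Angpt4, a further ligand of Tek, rose from 1.40 ± 0.380 to 23.8 ± 0.749 FPKM (edgeR adjusted p = 1.97e-08), well above Angpt1 in the rShh group. Angpt2, the context-dependent antagonist of Tek, was at 0.0510 ± 0.0233 and 0.0869 ± 0.0103 FPKM, with at most 19 counts in a library. Its log2 change of 0.72 (SE 0.62) did not pass (edgeR adjusted p = 0.334), and so few counts cannot show that the level was unchanged. Ptprb, the phosphatase that restrains Tek, had 0 counts in all 3 Control samples and 156, 159 and 186 under rShh, at least 44.9-fold higher than a floor of 3 counts per Control library.

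Angptl2, a secreted protein tied to inflammation, rose from 10.4 ± 1.28 to 37.2 ± 0.744 FPKM. Svep1, a matrix protein that binds the orphan receptor Tie1, fell from 8.33 ± 0.698 to 5.55 ± 0.380 FPKM. Tie1 itself had 4 counts in 1 library of each group and 0 in the others, and was not tested.

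**Figure D4:**
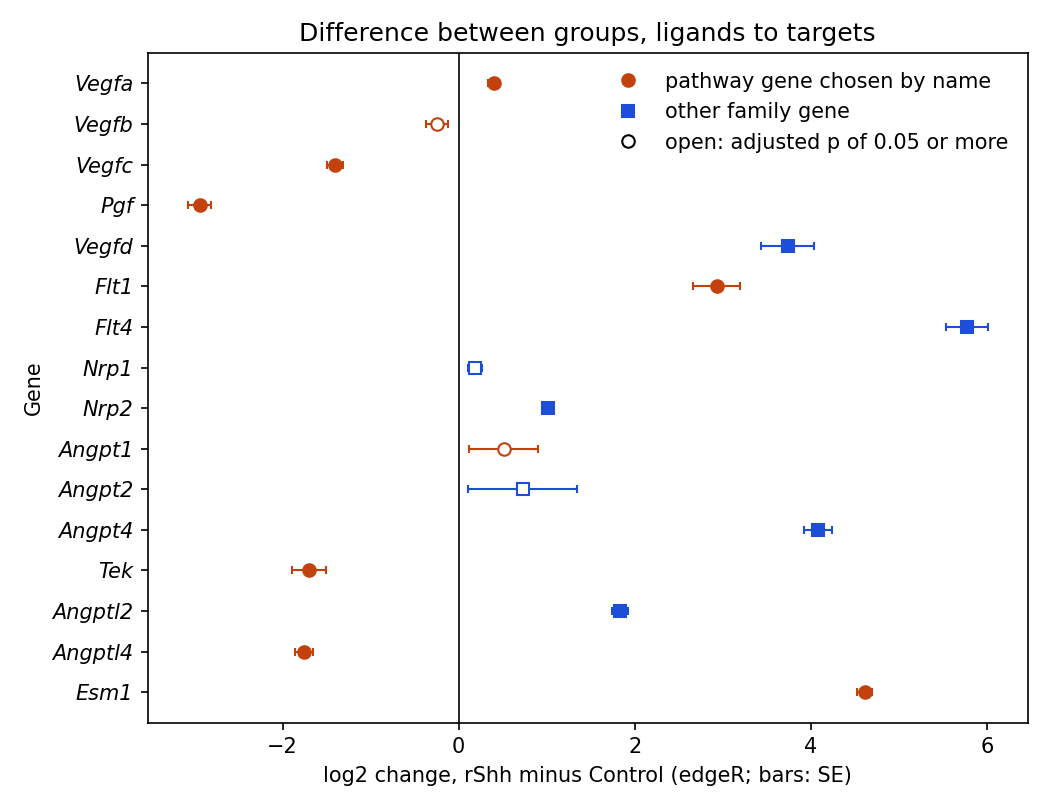
The edgeR log2 change (rShh minus Control, bars for SE) is plotted for the 9 measured genes (circles) and 7 other family genes (squares), with open symbols where the adjusted p was 0.05 or more. Flt4 (5.77), Esm1 (4.61) and Angpt4 (4.07) lie farthest to the right, and Pgf (-2.94) farthest to the left.

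Angptl4, a secreted inhibitor of lipoprotein lipase that fasting and low oxygen induce in many tissues (chromosome 7, 18627808 to 18634079), was at 14.8, 14.5 and 15.9 FPKM in Control and 3.90, 4.68 and 4.91 in rShh samples. The highest rShh sample was well below the lowest Control sample. The Control level was 3.35 times the rShh level (log2 change -1.75, SE 0.10, edgeR adjusted p = 3.22e-07).

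Esm1, endocan, a proteoglycan of endothelial tip cells that VEGF signalling induces there (chromosome 2, 45104305 to 45113131), changed most. Its counts were 1464, 1302 and 1061 under Control and 36926, 41741 and 36775 under rShh, or 10.1, 9.29 and 7.99 against 218, 235 and 219 FPKM. All rShh samples were more than 20-fold above any Control sample. The mean FPKM was 24.6 times higher (log2 change 4.61, SE 0.08, edgeR adjusted p = 2.82e-10), and 209 of the 8914 called genes had a higher log2 change. Esm1 stood at 0.19 to 0.23 times the FPKM of Vegfa in Control and at 3.66 to 3.98 times in rShh samples.

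The 3 genes whose pattern lay closest to that of Esm1 over the 6 samples, by Euclidean distance of log2(CPM + 1) centred on the Control mean, were Ctsk (distance 0.47), Mrvi1 (0.50) and Foxs1 (0.56). Ctsk, cathepsin K, a collagen-cleaving protease, rose from 1.14 ± 0.620 to 44.5 ± 2.37 CPM. Mrvi1, a substrate of cGMP-dependent kinase, rose from 2.17 ± 0.387 to 62.2 ± 2.96 CPM, and Foxs1, a forkhead transcription factor, from 0.282 ± 0.126 to 23.2 ± 0.291 CPM. With 2 groups, such likeness mainly states that a gene changed by a similar amount on this scale.

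Genes that carry the signal inside the cell went both ways. Of 26 tested genes of VEGF receptor signalling, 10 rose and 10 fell, 6 did not pass, and the median log2 change was 0.09. All genes tested went both ways too, 31.5% up and 28.8% down. Rcan1, a calcineurin inhibitor that VEGF induces in endothelium, rose from 19.6 ± 0.789 to 100.4 ± 7.62 FPKM. Pik3r1 and Pik3ca, the regulatory and catalytic subunits of a PI3 kinase, rose from 2.83 ± 0.260 to 8.47 ± 0.571 and from 4.62 ± 0.498 to 8.14 ± 0.351 FPKM. The Src family kinase Fyn fell from 9.89 ± 0.243 to 3.39 ± 0.326 FPKM, the adaptor Nck2 from 9.45 ± 0.552 to 5.09 ± 0.224, and the kinase Akt1 from 146 ± 6.31 to 89.0 ± 3.44.

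Of 22 tested genes of oxygen sensing and of the control of VEGF transcription and mRNA, 12 rose, 7 fell and 3 did not pass (median log2 change 0.55). Over all genes, 31.5% rose and 28.8% fell. Hif1a and Epas1, the oxygen-regulated subunits of the hypoxia-inducible factors, rose from 16.5 ± 1.70 to 53.5 ± 2.75 and from 0.871 ± 0.0738 to 3.68 ± 0.0501 FPKM. Egr1, an early response factor, rose from 4.73 ± 0.965 to 77.1 ± 6.15 FPKM. Vhl, which marks those factors for breakdown, fell from 19.6 ± 0.620 to 10.1 ± 0.307 FPKM. Egln2, a prolyl hydroxylase of the same system, fell from 22.4 ± 1.9 to 15.0 ± 0.271, and Atf4, a stress factor that can act on Vegfa, from 301 ± 11.7 to 203 ± 4.98 FPKM. Egln1, another such hydroxylase, rose from 22.1 ± 1.89 to 40.1 ± 2.86 FPKM, and Egln3 did not pass (edgeR adjusted p = 0.456). Egln1 and Egln3 were named after their values were seen. Vegfa and Angptl4, both known as targets of hypoxia-inducible factors, moved in opposite directions in the same samples. The part of these factors in either change was not tested.

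Of 15 tested inhibitors of angiogenesis, 7 rose (31.5% of all genes rose), 5 fell (28.8% of all genes fell) and 3 did not pass (median log2 change 0.64). Col18a1, a collagen whose end fragment is endostatin, rose from 6.17 ± 0.557 to 205 ± 4.51 FPKM, and Col4a3, the source of tumstatin, from 0.0657 ± 0.0477 to 2.76 ± 0.284. Serpinf1, pigment epithelium-derived factor, rose from 27.0 ± 1.65 to 85.6 ± 3.49 FPKM. The thrombospondins Thbs1 and Thbs2 fell from 4036 ± 350 to 3237 ± 129 and from 723 ± 161 to 341 ± 25.6 FPKM, and the matrix protein Sparc from 4811 ± 98.2 to 3636 ± 15.6. Adamts1, a protease that releases thrombospondin fragments, fell from 422 ± 35.6 to 339.7 ± 9.98 FPKM and Timp3, a metalloproteinase inhibitor, from 12.4 ± 0.504 to 10.3 ± 0.394, both named after their values were seen.

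Promoter windows from RefSeq (build GRCr8, from 250 bases before to 50 after the start) were found for 8 of the 10 genes, 9 windows in all. Angpt1 and Tek had none in the table. The windows of the 2 genes with the largest rise and the 2 with the largest fall are printed to set the opposite changes beside the sequence. Capitals mark the hypoxia response core, ACGTG or GCGTG, on either strand.
Esm1 (chr2:46609003-46609302, plus strand): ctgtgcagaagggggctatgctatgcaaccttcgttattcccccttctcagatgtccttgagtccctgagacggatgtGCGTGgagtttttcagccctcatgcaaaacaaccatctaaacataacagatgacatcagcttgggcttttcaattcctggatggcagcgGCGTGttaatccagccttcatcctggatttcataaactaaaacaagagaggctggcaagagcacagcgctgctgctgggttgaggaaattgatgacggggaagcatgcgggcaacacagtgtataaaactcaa
Flt1 (chr12:12333180-12333479, plus strand): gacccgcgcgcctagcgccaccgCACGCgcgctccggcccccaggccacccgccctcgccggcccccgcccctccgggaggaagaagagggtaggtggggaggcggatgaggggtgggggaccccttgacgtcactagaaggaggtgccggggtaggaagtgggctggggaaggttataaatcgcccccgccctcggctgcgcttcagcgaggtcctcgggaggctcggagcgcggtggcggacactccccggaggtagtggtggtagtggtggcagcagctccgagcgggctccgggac
Pgf (chr6:110557698-110557997, minus strand): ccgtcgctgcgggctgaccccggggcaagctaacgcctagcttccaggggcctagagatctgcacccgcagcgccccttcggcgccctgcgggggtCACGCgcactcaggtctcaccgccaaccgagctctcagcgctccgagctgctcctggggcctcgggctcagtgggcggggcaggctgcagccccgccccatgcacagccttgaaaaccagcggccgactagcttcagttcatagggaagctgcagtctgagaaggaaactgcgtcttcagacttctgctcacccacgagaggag
Angptl4 (chr7:15258632-15258931, minus strand): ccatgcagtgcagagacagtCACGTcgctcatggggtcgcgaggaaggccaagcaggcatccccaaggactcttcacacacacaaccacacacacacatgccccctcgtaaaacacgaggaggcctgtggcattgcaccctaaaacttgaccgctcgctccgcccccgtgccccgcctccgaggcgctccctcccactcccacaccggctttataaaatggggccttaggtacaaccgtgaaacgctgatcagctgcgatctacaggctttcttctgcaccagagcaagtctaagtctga
The core was present in 6 of the 9 windows, and in 41.6% of all 33469 windows of this length. Esm1 held it 172 and 83 bases before the start, Flt1 227, Pgf 154 and Angptl4 230 bases before, so it occurred in genes that rose and in genes that fell. Neither of the 2 Vegfa windows held it, and sequence outside the windows was not searched. The GLI motif GACCACCCA, searched on both strands for the transcription factors of the Hedgehog pathway, was in none of the 9 windows and in 0.385% of all windows. The TATAAA motif was in 3 of the 9, Esm1 (there after the start), Flt1 and Angptl4 (14.2% of all windows), and Flt1 alone held TGACGTCA, a cyclic AMP response element that overlaps no other motif searched (1.83% of all windows). The GC box GGGCGG was in 7 of the 9, among them Flt1, Pgf and Angptl4 but not Esm1 (33.1% of all windows). The EGR motif GCGGGGGCG was in 2 of the 9, Vegfb and Flt1 (2.73% of all windows), in both overlapping a GC box. These 2 windows held 73.7% and 72.7% G and C, against a median of 51.7% over all windows. Such matches describe these windows only.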

How the data were processed

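Poly(A) RNA of 6 samples, 3 Control and 3 rShh, was sequenced as paired-end reads from libraries in which the second strand was marked with dUTP, per the labels' protocols. The tools named in the submitters' processing notes are DESeq2, edgeR, StringTie 1.3.4d, HISAT2 2.0.4 and cutadapt 1.9, with no roles. The build and the strand setting of the counting were not given in the sources used here. The authors deposited whole-number counts per gene (19088 rows) and per transcript (24343 rows), not normalized, and FPKM values (fragments per kilobase of transcript) that the authors scaled to transcript length and library size, per the file headers. No member's symbol stood on more than 1 row.

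The deposited gene counts went into edgeR 4.0.16, run in R 4.3.3 (filterByExpr with a minimum count of 10, TMM scaling, quasi-likelihood test, 2-sided, group as the only term). The Benjamini-Hochberg adjustment ran over all genes tested, with a threshold of 0.05, and isoforms likewise. SEs are the unshrunken log2 change over the root of its F statistic. Levels are FPKM as mean ± SD. A floor is 3 counts per library, 0.043 to 0.059 CPM, and covers counting error only. The tests were tested on simulated data with known changes. DESeq2 1.42.0, limma 3.58.1 on log2(FPKM + 1), other scalings, no filter, a replicate block and leaving out each sample were alternatives.

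The members and gene lists were chosen with earlier results of these data known. Named are the 10 members, up to 3 genes of each other list with the smallest p in each direction, Flt4, Nrp1, Nrp2, Angpt2, Tie1, Hif1a and Epas1, and the genes most like the member with the highest level and the one with the largest change, both Esm1. Marker genes, Vegfd, Adamts1, Timp3, Serping1, Adamts8, Spry4, Vash2, Egln1, Egln3 and Sema4d are named outside this rule, after their values were seen. Symbols with no row count in no test. Replicates of a group differed by a chi-square per degree of freedom of 10.5 to 50.5 over genes with at least 100 counts, so none was counted as a repeat of another.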

Additional observations from a re-analysis of the deposited data

How the results depend on the processing

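Of the 9 measured genes, 7 changed under RLE and upper-quartile scaling, DESeq2, no count filter, limma on log2(FPKM + 1) with no minimum and the replicate block. Limma with a minimum mean of 1 FPKM tested 6 of them and called 5, since the mean over all 6 samples lay below that minimum for Flt1, Angpt1 and Tek. Leaving out single samples gave 7 to 9, the 9 without Control replicate 1, where Vegfb and Angpt1 passed. Of 120 alternative values of the members' log2 changes, 118 kept their direction and their side of the threshold, 2 newly passed and none changed sign. The count over all genes ranged from 7838 to 9252, and that of the other pathway genes from 79 to 89 beside 87 of 115 (60.3% of all genes changed). Samples with the same replicate number did not deviate together over all genes (correlations -0.08, -0.01 and -0.00075), so at the level of genes the numbers do not pair them. Over transcripts this was not checked, and replicate 3 of each group stood apart in shares of Vegfa transcripts. The replicate block gave 8440 genes in all and 8 member transcripts in place of 6, the added ones being the Vegfa transcripts of 3546 and 3342 bases. DESeq2 called 7 member transcripts. Ligand shares set from CPM, which is not per length, gave smaller differences: 16.6 percentage points for Vegfa (23.8 from FPKM), -7.70 for Vegfc (-9.43) and -7.58 for Pgf (-13.5). Leaving out single samples gave 23.0 to 24.6 points for Vegfa. Limma with other pseudocounts was run for the members only. Depth limits Angpt2 and Tie1, with at most 19 and 4 counts in a library.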

Other observations

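Other factors that act on vessels moved in both directions. Of 21 tested genes in a list of further angiogenic factors, 11 rose, 8 fell and 2, Sema4d and Angpt2, did not pass. Over all genes tested, 31.5% rose and 28.8% fell. Angpt2 is also counted among the angiopoietin genes. Cxcl12, a chemokine for endothelial progenitors, rose from 0.410 ± 0.130 to 40.8 ± 3.96 FPKM (mean ± SD, n = 3). Hgf, hepatocyte growth factor, rose from 0.0347 ± 0.00358 to 2.74 ± 0.505 FPKM, and Grem1, a BMP antagonist that can also bind Kdr, from 236 ± 24.3 to 863 ± 19.9. Mdk, the heparin-binding growth factor midkine, fell from 57.7 ± 9.04 to 7.68 ± 0.981 FPKM, Edn1, endothelin, from 40.3 ± 5.04 to 13.6 ± 0.762, and the ephrin receptor Ephb4, which is no secreted factor, from 20.5 ± 0.860 to 6.06 ± 0.174.

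Genes of lipoprotein lipase and of the PPAR receptors, which control Angptl4 in fat and muscle, were looked at as well. Among the 12 tested, 2 rose (31.5% of all genes rose), 3 fell (28.8% of all genes fell) and 7 did not pass. Lpl, the enzyme that Angptl4 inhibits, fell from 0.376 ± 0.0886 to 0.120 ± 0.0617 FPKM, Cpt1a, which admits fatty acids to mitochondria, from 12.7 ± 1.47 to 9.59 ± 0.382, and Ppard from 5.03 ± 0.0266 to 4.29 ± 0.124. Pdk4, which slows pyruvate oxidation and is, like Angptl4, a PPAR target, rose from 1.04 ± 0.376 to 2.81 ± 0.580 FPKM. The glucocorticoid receptor gene Nr3c1 rose from 5.97 ± 0.795 to 11.8 ± 0.139 FPKM.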
